A study of Homo sapiens with 4 samples.

Results

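PAX5, EBF1, TCF3, POU2F2, POU2AF1, SPI1, SPIB, BCL6, ID2 and MSC were followed in KM-H2 cells, 8 of them factors of B cell identity and 2 of them, ID2 and MSC, factors that oppose that programme in Hodgkin cells. The members were every probe set that the platform's annotation gives to exactly 1 gene and whose symbol is one of these 10, which came to 10 of 19775 named genes and to 38 of 41091 one-gene probe sets, on arrays of 54613 probe sets. The rule uses no measured value. KM-H2 is an established Hodgkin lymphoma line, started from cells of a pleural effusion. The 4 single-colour arrays fell into 2 groups of 2, transduced KM-H2 cells with a non-silencing control and transduced KM-H2 cells with CIITA-BX648577 knockdown. The knockdown used a lentiviral pGIPZ vector with 1 small hairpin against exon 2 of BX648577, which in this line is joined to CIITA, the gene of the coactivator that switches on HLA class II transcription. The labels do not give the time after transduction, whether transduced cells were selected, or whether the replicates came from separate cultures, so p-values measure the spread between these arrays, which may be technical.

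In normal B cells TCF3, a basic helix-loop-helix E protein, and EBF1 switch on PAX5, and these factors together with octamer and ETS factors keep B cell genes active. ID2 has a helix-loop-helix but no DNA-binding basic region and sequesters E proteins, and MSC (also called ABF-1) pairs with TCF3 as a repressor. Hodgkin and Reed-Sternberg cells derive from B cells that have lost most of that programme. They often keep some PAX5 and lack POU2AF1 and SPI1.

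The hairpin that defines the knockdown forms a stem of 23 paired bases, the longest inverted repeat of its 97-base insert. Both strands are shown because they are the reagent that sets the groups apart.
Stem strand before the loop: gacagccacctcactatcaaata
Stem strand after the loop: tatttgatagtgaggtggctgtc
The sites through which these factors are known to act can be seen in the RefSeq windows of 250 bases before a gene's start (GRCh38.p14). Capitals mark the octamer ATGCAAAT, which POU2F2 binds with POU2AF1 as its partner, and the E-boxes CAGGTG and CAGCTG of TCF3-type proteins, on either strand, with no overlap between these motifs in the windows shown. Over the 35116 windows read the shares that hold them were 1.63%, 17.5% and 14.0%. Windows were read for 7 of the members, 8 windows in all. No window was available for POU2AF1 or SPI1, and MSC was left out of the member reading by choice, so the member counts do not cover these genes. None of the 8 held the octamer or CAGGTG, and 3 held CAGCTG, those of EBF1, ID2 and 1 of the 2 of BCL6. ID2 is shown as the antagonist clear of background, CD79A as a gene that these factors are known to switch on in B cells, and CD53 and VPREB3 as B cell genes with an octamer. CD53 has another window in the table, which holds none of these motifs. These 4 were picked with their values known.
ID2, chr2:8681806-8682055, plus strand: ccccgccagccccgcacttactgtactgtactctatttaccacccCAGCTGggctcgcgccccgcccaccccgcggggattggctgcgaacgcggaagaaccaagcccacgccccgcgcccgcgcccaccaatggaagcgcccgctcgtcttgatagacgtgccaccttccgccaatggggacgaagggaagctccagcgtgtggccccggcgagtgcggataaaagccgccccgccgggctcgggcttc
CD79A, chr19:41877029-41877278, plus strand: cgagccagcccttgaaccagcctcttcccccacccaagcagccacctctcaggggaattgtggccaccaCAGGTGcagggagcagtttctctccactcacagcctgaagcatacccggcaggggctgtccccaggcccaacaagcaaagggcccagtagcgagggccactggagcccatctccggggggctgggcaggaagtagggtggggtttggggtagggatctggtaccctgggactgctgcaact
CD53, chr1:110870960-110871209, plus strand: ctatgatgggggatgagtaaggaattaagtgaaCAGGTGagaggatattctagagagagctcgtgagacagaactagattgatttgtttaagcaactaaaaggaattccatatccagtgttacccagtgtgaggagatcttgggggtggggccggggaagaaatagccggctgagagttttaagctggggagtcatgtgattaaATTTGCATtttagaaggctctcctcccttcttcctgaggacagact
VPREB3, chr22:23754426-23754675, minus strand: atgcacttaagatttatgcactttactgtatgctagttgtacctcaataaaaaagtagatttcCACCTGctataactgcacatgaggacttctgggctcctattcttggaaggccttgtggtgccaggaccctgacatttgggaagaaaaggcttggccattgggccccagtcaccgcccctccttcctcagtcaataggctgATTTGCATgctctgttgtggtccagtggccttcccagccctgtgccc
The octamer lies 46 bases before the start of CD53 and 47 before that of VPREB3. The levels of these genes are given with the other B cell genes. A match is a description of the letters and not a measured binding site.

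Values are the deposited linear intensities, whose array means lay between 53.3 and 54.6 and whose medians lay between 8.12 and 9.28. Group values are means ± SD over n = 2 arrays, and log2 fold changes are knockdown minus control of log2(intensity + 16), which understates changes of dim probe sets. As a check of the labels, PIERCE2, which the vector's target name FLJ27352 is taken to stand for, read 914 ± 47.8 in control and 605 ± 21.4 in knockdown. Its log2 fold change of -0.58 (SE 0.10) passed limma's intensity-trend fit (adjusted p = 9.7e-05) and not the common-prior fit (adjusted p = 0.252). Of the 9 Hodgkin line markers 6 lay above the background line defined next, among them TNFRSF8 (CD30) and IRF4. So did 1 of 7 T cell markers (CD3D), 0 of 8 myeloid, 0 of 8 fibroblast or epithelial, 0 of 2 erythroid and 1 of 6 plasma cell markers. Over all named genes it was 4226 of 19775. By the lower line without KRT10 and MBP, also defined there, 2 of 8 myeloid (CD14 and ITGAM) and 2 of 8 fibroblast or epithelial markers (COL1A1 and COL1A2) passed. The Hodgkin line, T cell, plasma cell and erythroid counts were then 7, 1, 1 and 0, beside 8034 of 19775 genes. Across all genes limma's common-prior fit, with 1 prior variance for every gene, called 0 higher and 2 lower of 12922 tested. Its intensity-trend fit, in which the prior variance follows brightness, called 206 higher and 181 lower, a split that became 484 and 128 when arrays were centred on their medians.

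ID2, TCF3 and BCL6 were the members with probe sets clear of background. The value table has no detection calls, so the background line was set on each array at the 95th percentile of 108 probe sets of 57 genes foreign to lymphoid cells. It lay at 55.0, 57.9, 75.9 and 70.6 on control replicates 1 and 2 and knockdown replicates 1 and 2. By that line 9 of 38 member probe sets (23.7%) from 3 genes were above background on all 4 arrays, beside 5731 of 41091 one-gene probe sets (13.9%). They were 6 of 14 probe sets of TCF3, both of ID2 and 1 of 3 of BCL6. With the line at the 99th percentile only 6 member probe sets of TCF3 and ID2 passed, and BCL6 did not, beside 6.45% of all. The 95th percentile was, however, set by probe sets of KRT10 and MBP, whose transcripts are not limited to skin and nerve tissue and which read up to 205 here. Without those 2 genes, a choice made after the values were seen, the line fell to between 17.2 and 21.0. EBF1, POU2F2, SPIB and MSC then also passed, for 18 of 38 member probe sets (47.4%) beside 29.9% of all. PAX5 passed neither line on all 4 arrays, and POU2AF1 and SPI1 lay below even the median of all probe sets on every array. These are statements of each probe set against background, and levels of different probe sets are not compared.

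**Figure D1:**
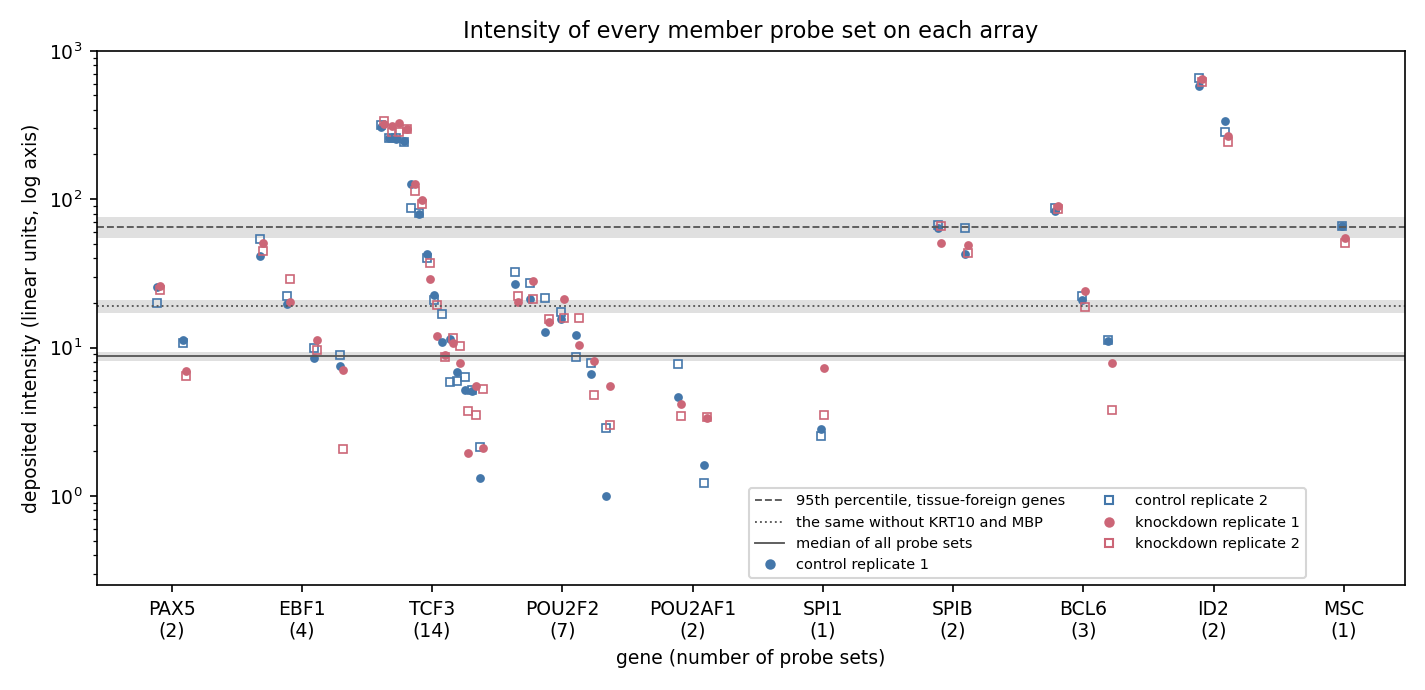
Deposited intensity (linear units, log axis) of all 38 member probe sets on each of the 4 arrays, grouped by gene with the number of probe sets in brackets and sorted from bright to dim. Circles and squares are replicates 1 and 2, blue is control and red is knockdown, and the grey bands span the 4 arrays' background lines, which the brightest TCF3, ID2 and BCL6 probe sets exceed.

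None of the 10 genes was called in the knockdown. With each gene at its brightest probe set 8 of 10 members passed the filter on dim probe sets (a mean intensity of 8.26), all but POU2AF1 and SPI1. Of these 8, 0 passed an adjusted p of 0.05 in limma's common-prior fit, which called 0.0155% of all genes tested, and 0 passed the intensity-trend fit, which called 2.99%. At an unadjusted p below 0.05 in the common-prior fit there were 2 of 8, POU2F2 and MSC, both with lower values in knockdown. Beside them stood 14.1% of all genes in either direction and 7.68% with lower values. In limma's intensity-trend fit there was 1 of 8, MSC, beside 2204 of 12922 genes, and POU2F2 had an unadjusted p of 0.0527. With arrays centred on their medians there were 0 of 8 in either fit, beside 2003 genes in the common-prior and 2494 in the intensity-trend fit. Both knockdown arrays lay to one side of both control arrays for 3 of 8 members, beside 47.3% of all genes tested. The members' median log2 fold change was 0.02 and that of all genes tested was -0.01. In bulk RNA, fewer cells expressing a gene and less RNA per cell cannot be told apart.

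Among the activators of the B cell programme, TCF3 had the most probe sets. The brightest of its 14 probe sets read 305 and 314 in control and 319 and 338 in knockdown. The knockdown arrays were both higher, by a log2 fold change of 0.08 (SE 0.10, limma adjusted p = 0.745), with a 95% interval from -0.16 to 0.32. The TCF3 probe set with the largest difference, whose x_at type is described below, read 247 and 241 in control and 299 and 297 in knockdown. There the groups stood apart and each was tight. Its log2 fold change of 0.27 (SE 0.10) had an unadjusted p of 0.0353 and adjusted p-values of 0.477 and 0.161 in limma's common-prior and intensity-trend fits of all one-gene probe sets. All 6 TCF3 probe sets above background had differences above 0, from 0.08 to 0.27. In 5 of them both knockdown arrays lay above both controls, beside 19.1% of all one-gene probe sets, a share that includes those not above the line. The exception read 127 and 87.5 in control and 127 and 113 in knockdown, with the controls further apart than the group means. These 6 are not independent, since they read 1 gene on the same arrays, and 3 are of the x_at type whose probes can match other transcripts. The other 8 TCF3 probe sets were not above the line and did not share the direction, with 3 differences above 0 and 5 below. One of them read 42.4 and 40.0 in control and 28.9 and 37.0 in knockdown, a log2 fold change of -0.23 (SE 0.12). No TCF3 probe set passed either fit.

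EBF1, the pioneer factor of the B lineage, lay between the background lines. Its brightest probe set read 41.2 and 53.5 in control and 50.5 and 44.9 in knockdown. Both knockdown values fell between the controls, and the log2 fold change was 0.01 (SE 0.13, limma adjusted p = 0.973), with an interval from -0.29 to 0.32. The next probe set read 19.5 and 22.4 against 20.2 and 29.1, again overlapping, and the remaining 2 stayed at or below 11.2 on every array. The groups stood apart at the dimmest, below the array median throughout, which read 7.54 and 8.95 against 7.02 and 2.06. Its log2 fold change was -0.25 (SE 0.14). At its brighter probe set PAX5, which commits cells to the B lineage, gave 25.5 and 19.9 in control and 26.0 and 24.3 in knockdown, with overlapping groups. The log2 fold change was 0.09 (SE 0.11, limma adjusted p = 0.747), interval -0.18 to 0.36. Its other probe set read 11.3 and 10.8 in control and 6.90 and 6.40 in knockdown, near the median of the array. The groups stood apart there, with a log2 fold change of -0.25 (SE 0.10), an unadjusted p of 0.0463 and a limma adjusted p of 0.494. The PAX5 probe sets therefore differed in sign, and neither was called.

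The octamer factor and its coactivator stayed low or below background. POU2F2 (Oct-2), which binds the octamer in B cell promoters, gave 26.7 and 32.5 in control and 20.1 and 22.2 in knockdown where its signal was highest. Both knockdown arrays were lower, by a log2 fold change of -0.29 (SE 0.11) with an interval from -0.56 to -0.03. The unadjusted p was 0.0357 and the limma adjusted p was 0.325, and 0.301 in the intensity-trend fit. The other 6 POU2F2 probe sets did not follow, with 4 differences above 0 and 2 below, and 5 of the 6 had overlapping groups. With the mean of all 7 probe sets the log2 fold change was -0.00094. The second of them read 21.1 and 27.2 in control and 28.1 and 21.2 in knockdown, which interleave. POU2AF1 (OBF-1), the coactivator that B cells add to octamer factors, stayed between 1.23 and 7.75 on all arrays at both probe sets. One read 4.62 and 7.75 in control and 4.16 and 3.46 in knockdown, and the other 1.62 and 1.23 against 3.34 and 3.39. The groups did not overlap at either, the signs were opposite, and all values lay below the array median.

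The ETS factors gave no call either. SPIB, an ETS factor of B cells and plasmacytoid dendritic cells, read 64.3 and 66.9 in control and 50.7 and 65.7 in knockdown at its brighter probe set. Only knockdown replicate 1 was low, and the log2 fold change was -0.14 (SE 0.13, limma adjusted p = 0.635). Without that array it was 0.00. The other SPIB probe set read 42.9 and 64.4 in control and 48.8 and 43.1 in knockdown, overlapping, with a log2 fold change of -0.15 (SE 0.17). SPI1 (PU.1), the ETS factor of myeloid and B cells, read 2.83 and 2.55 in control and 7.33 and 3.53 in knockdown at its only probe set. Every array was below that array's median of all probe sets, so no level is given to the difference. BCL6, the repressor of the germinal centre, gave 83.6 and 87.5 in control and 89.9 and 85.5 in knockdown where it was brightest. The groups overlapped within a narrow range, with a log2 fold change of 0.03 (SE 0.10, limma adjusted p = 0.918) and an interval from -0.21 to 0.27. A dimmer one read 20.8 and 22.4 against 24.0 and 18.8. The dimmest read 11.1 and 11.3 in control and 7.84 and 3.78 in knockdown, a log2 fold change of -0.33 (SE 0.13) with an unadjusted p of 0.0396 and a limma adjusted p of 0.484.

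Of the antagonists, ID2 was above background on every array. Its brighter probe set read 582 and 653 in control and 650 and 619 in knockdown. Both knockdown values lay between the controls, and the log2 fold change was 0.04 (SE 0.11, limma adjusted p = 0.894), with an interval from -0.22 to 0.30. The other read 338 and 282 in control and 267 and 243 in knockdown. There the knockdown arrays were both lower, by -0.26 (SE 0.13) with an interval from -0.57 to 0.05, adjusted p-values of 0.547 in the common-prior and 0.306 in the intensity-trend fit of limma. The ID2 probe sets thus went in opposite directions, and the second is of the x_at type. MSC read 65.8 and 65.7 in control and 54.6 and 50.4 in knockdown at its single probe set. The groups stood apart, with means of 65.7 ± 0.021 and 52.5 ± 2.98 and a log2 fold change of -0.26 (SE 0.10, interval -0.50 to -0.02). Its unadjusted p was 0.0386, its limma adjusted p 0.331, and 0.236 in the intensity-trend fit. MSC lay above the background line on the control arrays only, where the line itself was lower.

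**Figure D2:**
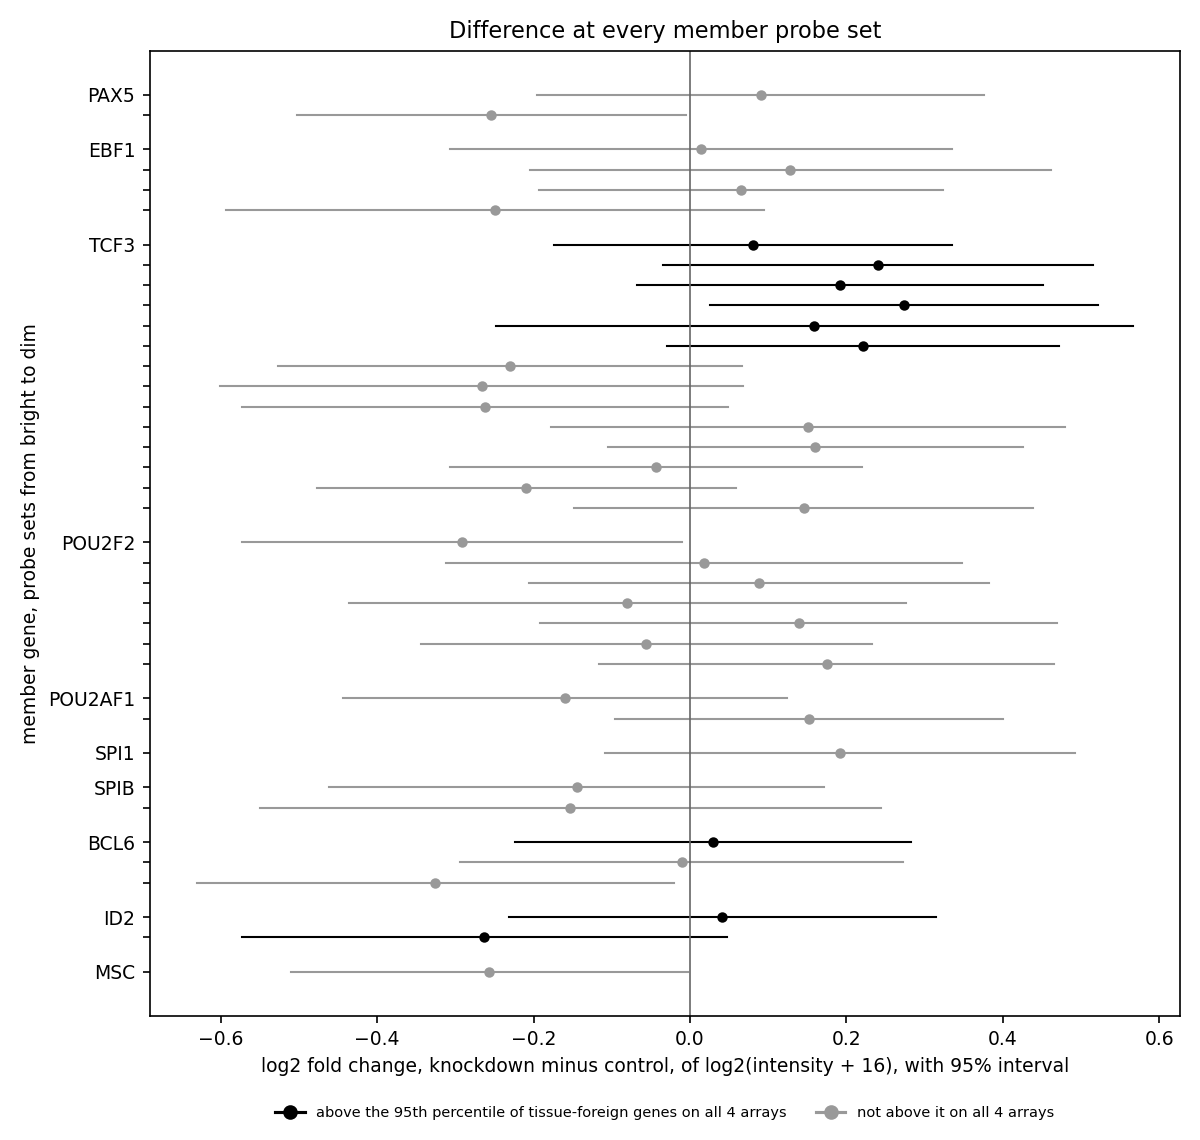
Log2 fold change (knockdown minus control, of log2(intensity + 16)) with its 95% interval for each of the 38 member probe sets, from limma's common-prior fit of all one-gene probe sets. Black marks the 9 probe sets above the background line on all 4 arrays, and within PAX5, EBF1, TCF3, POU2F2, POU2AF1, BCL6 and ID2 the points fall on both sides of 0.

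Taken by probe set, 21 of 38 differences lay above 0 and 17 below, with a median of 0.02 and a range from -0.33 to 0.27, where all one-gene probe sets had a median of -0.02. At 20 of 38 the groups did not overlap, beside 41.4% of all one-gene probe sets. Of these 9 were higher in knockdown and 11 lower, beside 19.1% and 22.3% of all. At an unadjusted p below 0.05 there were 5 of 38, in TCF3, PAX5, POU2F2, BCL6 and MSC, beside 9.97% of all. No probe set passed an adjusted p of 0.05 in limma's common-prior fit, which called 0% of all one-gene probe sets, or in its intensity-trend fit, which called 0.209%.

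Related genes were read from 3 lists. Partner factors of B cells had 16 of 20 genes tested, 2 above 0 and 14 below, beside 6786 of 12922 below 0 among all genes tested. Their median was -0.09 beside -0.01 for all genes tested. Centred on array medians, 9 of the 16 lay below 0, beside 5142 of 12922, with a median of -0.04 beside 0.05 for all. At an unadjusted p below 0.05 there was 1 of 16 in limma's common-prior fit, beside 1821 of 12922. In its intensity-trend fit there were 3, beside 2204. REL, the NF-kB subunit of B cells, passed the intensity-trend fit alone (limma adjusted p = 0.0291, and 0.260 in the common-prior fit). It read 227 and 209 in control and 159 and 172 in knockdown, a log2 fold change of -0.37 (SE 0.11). Of the other 4 REL probe sets, 1 read 138 and 126 against 103 and 93.5 and a dim one 10.1 and 7.76 against 2.21 and 4.59, both with lower knockdown arrays. Another read 27.9 and 21.3 against 17.7 and 21.3, where the groups all but touched, and the last read 136 and 134 against 146 and 132, where they overlapped. REL also passed the intensity-trend fit with quantile normalization and with median centring. IRF4, a factor of activated B and plasma cells and of Hodgkin cells, read 223 and 253 in control and 250 and 239 in knockdown, with no separation. TCF12 and TCF4, the other E proteins, gave log2 fold changes of -0.10 (SE 0.10) and -0.22 (SE 0.10), with limma adjusted p-values of 0.658 and 0.390.

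Antagonists and factors of other lineages had 13 of 16 genes tested, 4 above 0 and 9 below, with a median of -0.05, or 0.01 with median centring. None was called by limma in either fit, and 1 of 13 had an unadjusted p below 0.05, beside 14.1% of all genes. ID3, which like ID2 sequesters E proteins, read 54.1 and 58.0 in control and 56.4 and 65.3 in knockdown, overlapping, a log2 fold change of 0.09 (SE 0.11). ID1 was dim and scattered, from 5.85 to 18.0. B cell genes that these factors are known to control had 20 of 33 genes tested, 9 above 0 and 11 below, with a median of -0.03. Limma's common-prior fit called 0 of them, and 6 of 20 had an unadjusted p below 0.05, beside 14.1% of all genes tested. In the intensity-trend fit 3 of 20 had one, beside 2204 of 12922 genes tested. With the background line at the 95th percentile 5 of 30 measured genes were above it (CD24, CD53, CR2, LYN and SWAP70), beside 4226 of 19775 named genes. Without KRT10 and MBP 8 of 30 were, CD79A and BLK among them, beside 8034 of 19775, and by the 99th percentile 3 of 30 (CD53, CR2 and LYN), beside 2090. CD79A, a chain of the B cell receptor, read 37.9 and 32.7 in control and 34.7 and 32.8 in knockdown at its brighter probe set. CD79B stayed between 3.59 and 10.4 over 3 probe sets, and MS4A1, the gene of CD20, between 1.70 and 10.3 over 4. Of the genes with an octamer shown above, CD53, a leukocyte tetraspanin, read 198 and 179 in control and 188 and 201 in knockdown, and VPREB3, a pre-B cell gene, 5.14 and 9.67 against 8.33 and 11.3. At the brightest probe set of CD53, VPREB3, CD79A and MS4A1 the groups overlapped. At that of CD79B they stood apart, with 10.4 and 9.60 in control and 8.86 and 7.83 in knockdown. They also stood apart at 3 dim probe sets that lay below the array median on every array, 1 of CD53 (2.35 and 2.57 against 1.06 and 1.03) and 2 of MS4A1, which differed in sign (6.86 and 6.42 against 4.66 and 6.08, and 2.30 and 1.70 against 4.01 and 6.80). MYBL1, a MYB family factor of germinal centre cells, read 31.6 and 43.5 in control and 22.4 and 15.5 in knockdown, a log2 fold change of -0.61 (SE 0.15). It passed the intensity-trend fit alone (limma adjusted p = 0.0372, and 0.255 in the common-prior fit). Its other probe sets stayed at or below 9.66. At the dimmest both knockdown arrays were higher (5.23 and 5.49 against 5.93 and 7.09), and at the other the groups overlapped. With quantile normalization the intensity-trend fit called 0 of the 20 genes, so the MYBL1 call was lost. With median centring it called MYBL1 and, as higher in knockdown, CD24, a surface glycoprotein of B cells, whose log2 fold change without centring was 0.38 (SE 0.12, limma adjusted p = 0.273, and 0.0624 with the intensity trend). At every CD24 probe set both knockdown arrays lay above both controls, beside 19.1% of all one-gene probe sets. The CD24 probe sets are not independent, since they read 1 gene on the same arrays. The intensity-trend fit also called 4 marker genes. These were the Hodgkin line markers FSCN1 (log2 fold change -0.32) and FUT4 (0.39), the T cell marker CD3D (0.32) and the fibroblast marker COL1A2 (-0.47). The other FSCN1 probe set went the opposite way, with 34.1 and 21.8 in control and 38.1 and 40.4 in knockdown. At the other FUT4 probe set the groups overlapped (56.6 and 49.0 against 54.6 and 61.3). FUT4 and CD3D lost the call with quantile normalization and COL1A2 with median centring, and the part of these markers in the other calls was not tested.

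**Figure D3:**
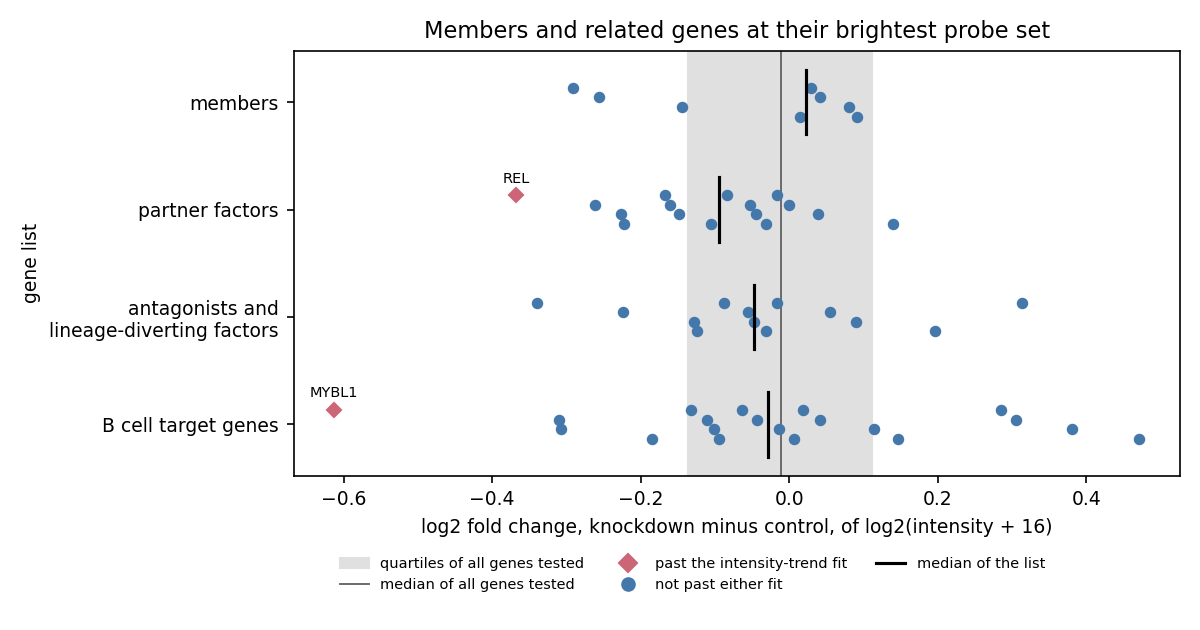
Log2 fold change (knockdown minus control, of log2(intensity + 16)) of the 8 tested members and of the tested genes of the 3 related lists at their brightest probe sets. Black bars are list medians, the grey band and line are the quartiles and median of all 12922 genes tested, and the diamonds are REL and MYBL1, which passed the intensity-trend fit alone.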

How the data were processed

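The authors deposited 1 linear intensity per probe set for each of 4 single-colour arrays, made from total RNA by the standard Affymetrix single-cycle biotin method, per the labels' protocols. No source used here states how intensities were summarised and scaled, and 971 to 1080 values per array equal 1, with 2 below it on 1 array. Scanner output was not analysed here. Names came from the platform's annotation (41091 with 1 gene, 1801 with several, 11721 with none), and 1 that lists ID2 beside another gene was left out. Members and gene lists were chosen with earlier results of these data known.

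Each gene was represented by its brightest probe set, genes dimmer on average than the median probe set (log2 4.60) were left out, and 12922 of 19775 genes were tested with limma 3.58.1 (R 4.3.3), two-sided, with Benjamini-Hochberg adjustment over all of them and a pseudocount of 16. A fit of all 41091 one-gene probe sets gave values for every member probe set. Scripts were tested on simulated data. Named are all members, list genes past either fit, IRF4, CD79A, CD79B, MS4A1, ID3 and PIERCE2; 1 other gene of the rule is not reported here. ID1, TCF4, TCF12, CD53, VPREB3, CD24, the marker genes called, the members of detection counts, KRT10 and MBP were named after their values were seen. Replicate numbers did not pair the arrays: same-numbered arrays had deviations from their group means that correlated at r = -0.01 across probe sets, and the labels name no shared batch. The number of arrays limits the precision.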

Additional observations from a re-analysis of the deposited data

How the results depend on the processing

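With only 2 arrays per group, 2 residual degrees of freedom and no detection calls, small changes and dim genes cannot be resolved. In all 17 alternatives run for the members, which covered variance prior, pseudocount, scaling, filter, probe set choice, threshold, replicate block and single arrays left out, 0 member genes were called. Over all genes the count of 2 became 387 with the intensity trend, 0 with a pseudocount of 1 and 406 with one of 64, 18 with a filter at the 75th percentile, 1 with probe sets averaged per gene, and from 1 (without control replicate 2) to 6 (without knockdown replicate 1) with single arrays left out. With the replicate number as a block it was 2, and the block changed no member's call, with adjusted p-values of 0.322 for POU2F2 and 0.357 for MSC. Above background were 23 member probe sets by the median of all probe sets and 18 without KRT10 and MBP, and 6 by the 99th percentile, which BCL6 did not pass. The intensity trend called 1 partner factor and 1 B cell gene. With probe sets averaged per gene, log2 fold changes turned to -0.082 for PAX5, -0.010 for EBF1, -0.10 for BCL6 and -0.11 for ID2, and with quantile normalization to -0.020 for EBF1 and -0.0040 for BCL6. With single arrays left out they ranged from -0.014 to 0.20 for PAX5, -0.13 to 0.15 for EBF1, -0.29 to 0.0024 for SPIB, -0.00094 to 0.061 for BCL6 and -0.040 to 0.12 for ID2. TCF3 stayed above 0 and POU2F2 and MSC below 0 in every alternative run, which was largely fixed beforehand. Their groups stood apart at the brightest probe set, so leaving out 1 array or changing the pseudocount could not turn the sign. Variance prior, filter, threshold and block do not change the estimate. Scaling and averaging of probe sets could. Averaging left POU2F2 at -0.00094 and cannot act on the single probe set of MSC. The causes were not tested.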
